A study of Gallus gallus with 6 samples.

Results

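Chromosomes 13, 14 and 15 carried 2229 of the 37420 genomic regions where TCF21 was found in every replicate of this series, with 777 regions on chromosome 13, 763 on chromosome 14 and 689 on chromosome 15. TCF21 is a basic helix-loop-helix transcription factor, and the cells were chicken preadipocytes, the precursors of fat cells. Peaks of different replicates sharing 1 bp or more were merged by position, and a region was kept where each of the 3 peak lists contributed a peak. Keeping a region thus depended on a called peak in every list and not on position alone. Altogether the 3 chromosomes had 4545 joined regions, of which 775 held peaks of 2 lists and 1541 held peaks of a single list. The kept regions were 49.0% of the regions on these chromosomes and 46.5% of those in the whole series.

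The series consists of 3 immunoprecipitated samples and 3 input DNA samples. All of them came from adipose-derived preadipocytes with stable overexpression of TCF21 from the construct named LV-TCF21, and all were treated for 24 h with oleic acid at 300 µM, which induces fat cell differentiation. Immunoprecipitation used an antibody against the HA epitope tag, and the input samples are sonicated DNA with no antibody. The bound factor is therefore an overexpressed protein and not the protein at its native level, and no group without the construct or without oleic acid was analysed here. Whether the 3 samples were separate cultures is not in the labels, so the spread between lists may be technical. A peak list records no gene expression, so the labelled cell type was not checked against markers.

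Birds carry a few large chromosomes and many small microchromosomes, and chromosomes 13 to 15 belong to the small ones, which are known to be rich in genes and in G and C bases. TCF21 pairs with other helix-loop-helix proteins and binds short E-box sequences, and it is known for its role in mesenchymal cells, the precursors of fat cells among them. No genome or gene annotation of the build was used here, so regions are given by position alone, without sequence or nearby genes, and the positions are those of the lists, whose build no source used here states.

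The lists held 3484, 3230 and 3297 peaks on the 3 chromosomes together. In list 1 there were 1276 peaks on chromosome 13, 1189 on chromosome 14 and 1019 on chromosome 15. List 2 had 1163, 1106 and 961 peaks in the same order of chromosomes, and list 3 had 1197, 1142 and 958. The authors' peak caller gave each peak a pileup, the number of fragments stacked at its summit, and a fold enrichment, the ratio of the pileup to the local input level with 1 added to both. From these values the input level under each summit follows as (pileup + 1) / fold enrichment − 1 and is given relative to the mean over all autosomal peaks of the same list. Read totals are not in the lists, so depth is unknown, and pileups are compared only within a list. A q-value of at most 0.05 was reached in list 1 by 1213 peaks (95.1%) of chromosome 13, 1146 (96.4%) of chromosome 14 and 987 (96.9%) of chromosome 15, against 95.6% of the whole list. In list 2 the shares were 94.8%, 95.9% and 95.2% against 94.8%, and in list 3 they were 90.1%, 90.9% and 94.4% against 90.4%. These shares were near those of the whole lists, apart from the higher one of chromosome 15 in list 3.

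The 3 chromosomes differed most in their input level. The level was 0.834, 0.833 and 0.831 times the autosomal mean on chromosome 13 in lists 1, 2 and 3. It was 0.840, 0.846 and 0.875 times on chromosome 14. On chromosome 15 it was 1.37, 1.40 and 1.41 times. Each value of chromosome 15 lay above each value of the others, while chromosome 13 was just below chromosome 14 in every list. In fragments at the summit, the mean level was 1.62 on chromosome 13, 1.66 on chromosome 14 and 2.71 on chromosome 15, against 1.95 on the other 28 autosomes. The ratio of chromosome 13 over 15 was 0.598 ± 0.0113 and that of 14 over 15 was 0.613 ± 0.00665 (SD, n = 3). The ratio of 13 over 14 was 0.976 ± 0.0231, a difference of about the size of its spread.

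Every test over lists in this report is an exact two-sided sign-flip permutation test of the log2 ratio in 3 lists, which cannot give a p below 0.25. The main comparison held 42 such tests, for 7 measures and 6 pairs, and Benjamini-Hochberg adjustment over them turns 0.25 into 0.309. The same test was repeated under alternative settings, outside this adjustment. No difference could therefore pass a threshold of 0.05, and the ratios, their SDs and the number of lists that went one way carry the comparison. The 3 input ratios above each gave p = 0.25 by this exact test, the smallest value possible, with all 3 lists on one side.

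**Figure D1:**
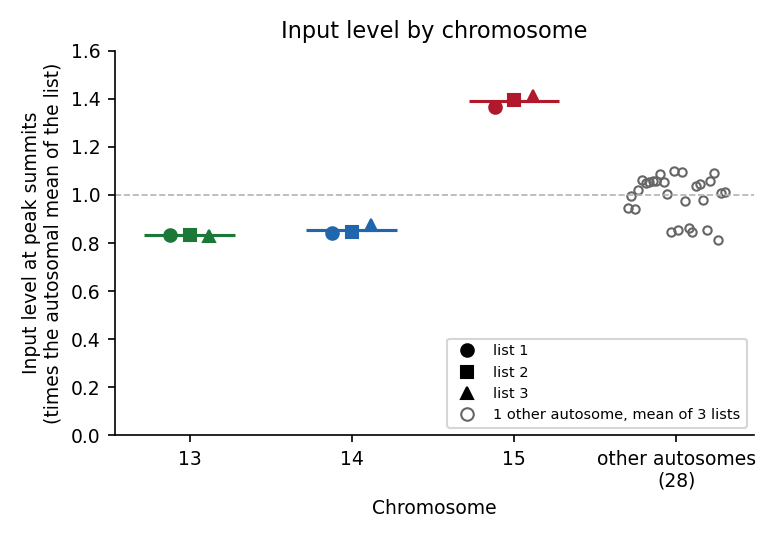
Input level at the peak summits (vertical axis, times the autosomal mean of the same list) on chromosomes 13, 14 and 15, with 1 symbol per list and a bar at the mean of the 3 lists, and on each of the other 28 autosomes as open circles (mean of 3 lists). Chromosome 15 sits at 1.37 to 1.41, above all other autosomes, and chromosomes 13 and 14 sit among the lowest.

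Set against the other autosomes, chromosome 15 had the highest input level of the 31 autosomes. Its ratio to the peaks of the other 28 autosomes together was 1.39 ± 0.0243, and the next highest chromosome, 17, was at 1.10. Chromosome 13 had a ratio of 0.833 ± 0.00134 to the same autosomes and chromosome 14 one of 0.854 ± 0.0191. They took ranks 30 and 26 of 31 by their mean level. Among the other 21 autosomes of at least 5 Mb the lowest level was 0.854, on chromosome 18, so chromosome 13 lay below that range and chromosome 14 at its lower end. Each of the 3 ratios had all lists on one side of 1 (exact sign-flip permutation p = 0.25, adjusted 0.309).

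The peak caller sets a floor to the input level where few control reads are found, and that floor was 0.437, 0.445 and 0.465 times the autosomal mean in lists 1, 2 and 3. Peaks at the floor made up 9.81 ± 0.666% of those on chromosome 13, 7.71 ± 0.845% on chromosome 14 and 0.378 ± 0.223% on chromosome 15, against 4.99 ± 0.473% on the other autosomes (SD, n = 3). Of the kept regions, 135 on chromosome 13, 106 on chromosome 14 and 3 on chromosome 15 were at the floor in at least 1 list. With the peaks at the floor left out the input ratio was 0.627 ± 0.0138 for chromosome 13 over 15 and 0.636 ± 0.00551 for 14 over 15.

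The level of chromosome 15 was high along its whole length. Its 12 complete 1-Mb bins had mean levels of 1.26 to 1.52 times the autosomal mean, with a median of 1.39. The 18 complete bins of chromosome 13 ran from 0.686 to 0.936 with a median of 0.812, and the 15 of chromosome 14 from 0.744 to 0.939 with a median of 0.852. In single lists, the lowest bin of chromosome 15 had 1.22 and the highest bins of chromosomes 13 and 14 had 0.948 and 0.999, so no bin of chromosome 15 overlapped a bin of the others in any list. The unfinished last bin of chromosome 15 had 1.34 ± 0.0734, inside the range of its complete bins. The first 50% of the span and the second 50% had levels of 1.39 ± 0.0224 and 1.40 ± 0.0279 on chromosome 15. They had 0.871 ± 0.0389 and 0.831 ± 0.00770 on chromosome 14, and 0.810 ± 0.00608 and 0.847 ± 0.00388 on chromosome 13.

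Within chromosomes 13 and 14, bins with more regions had a higher input level. Spearman's rho between the regions in a bin and its input level was 0.824 over the 18 bins of chromosome 13, 0.803 over the 15 of chromosome 14 and 0.371 over the 12 of chromosome 15. Without the 1 bin of chromosome 13 that had under 20 peaks in a list, its rho was 0.815. The bins of a chromosome share their libraries and differ in base composition and in usable sequence, which were not measured, so these values are descriptions and carry no p-value.

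**Figure D2:**
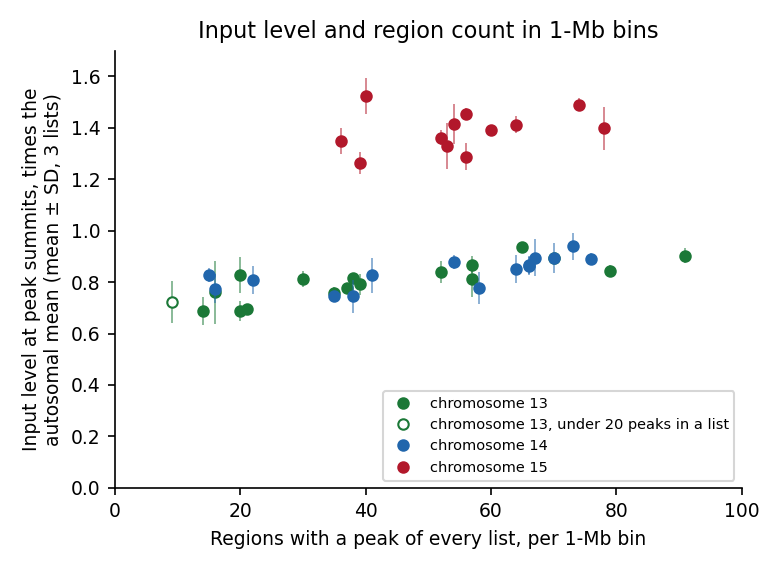
Input level at the peak summits (vertical axis, times the autosomal mean, mean ± SD of 3 lists) against the number of regions with a peak of every list (horizontal axis) in each complete 1-Mb bin of the 3 chromosomes; the open circle is a bin with under 20 peaks in a list. The bins of chromosome 15 lie at 1.26 to 1.52, clear of the bins of chromosomes 13 and 14, which lie at 0.686 to 0.939 and overlap each other.

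The pileup was higher on chromosome 15 as well. Its median was 14, 13 and 11 fragments on chromosome 13 in lists 1, 2 and 3, and 14, 14 and 11 fragments on chromosome 14. It was 20, 20 and 16 fragments on chromosome 15. The median of chromosome 15 was the highest of the 3 in every list, and chromosomes 13 and 14 tied in lists 1 and 3. The ratio of the medians was 0.679 ± 0.0260 for chromosome 13 over 15 and 0.696 ± 0.00722 for 14 over 15 (SD, n = 3; exact sign-flip permutation p = 0.25 for each). Pileups are whole numbers, so such ratios of low medians are coarse.

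The contrast ran through the whole range of pileups. The 25th percentile was 8.33 fragments on chromosome 13, 8.67 on chromosome 14 and 12 on chromosome 15, as means of the 3 lists. The 75th percentile was 23 on chromosome 13, 24.9 on chromosome 14 and 35.6 on chromosome 15. At the 99th percentile the pileup was 109 on chromosome 13, 115 on chromosome 14 and 154 on chromosome 15. In lists 1, 2 and 3 the highest peak of chromosome 13 had 193, 182 and 159 fragments and that of chromosome 14 had 205, 200 and 177. The highest peak of chromosome 15 had 263, 264 and 245 fragments. Over these percentiles the ratio of chromosome 13 over 15 stayed between 0.647 and 0.761. That of 14 over 15 stayed between 0.696 and 0.831. All of them were closer to 1 than the input ratios of 0.598 and 0.613, which are ratios of means and not of percentiles. With the median input level over the peaks, the input ratios were 0.618 ± 0.0416 for 13 over 15 and 0.627 ± 0.0486 for 14 over 15. The lowest pileup ratio of 13 over 15, 0.647, lay within the SD of that median-based ratio, so the gap between the 2 measures depended on this choice.

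The 90th percentile, above which the strongest 10% of the peaks lie, was 48, 45 and 39.4 fragments on chromosome 13 in lists 1, 2 and 3. Chromosome 14 had 51, 51.5 and 44 fragments there, while chromosome 15 had 70, 67 and 58. Chromosome 15 was highest and chromosome 13 lowest in every list. The ratio of 13 over 15 was 0.679 ± 0.00705, that of 14 over 15 was 0.752 ± 0.0209 and that of 13 over 14 was 0.903 ± 0.0344, each with p = 0.25 by the exact permutation test. Averaged over the strongest 10%, the pileup was 73.8 ± 7.0 fragments on chromosome 13, 80.9 ± 8.08 on chromosome 14 and 102 ± 8.91 on chromosome 15, where the SD includes any difference in depth between lists. The ratio of 14 over 15 was 0.795 ± 0.0103 for this average and 0.722 ± 0.0505 for the weakest 10%, which held 5.50 and 7.61 fragments on average on chromosomes 14 and 15.

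The input level was recovered separately for weak and strong peaks. For it, the strongest and weakest 10% were cut at a pileup value with all tied peaks kept, so these sets could exceed 10%. The pileup averages used a fixed 10% of the peaks, so the peaks behind the input and pileup ratios were not all the same. In the strongest 10% by pileup the input level was 1.01 ± 0.0400 times the autosomal mean on chromosome 13, 1.02 ± 0.0572 on chromosome 14 and 1.62 ± 0.0235 on chromosome 15. In the weakest 10% it was 0.587 ± 0.0515, 0.613 ± 0.0149 and 0.990 ± 0.0808. The ratio of chromosome 14 over 15 was 0.633 ± 0.0432 among the strongest and 0.622 ± 0.0477 among the weakest. That of 13 over 15 was 0.626 ± 0.0327 among the strongest and 0.598 ± 0.0946 among the weakest. Both differences were within the spread. For the pileup, the ratio of 13 over 15 was 0.725 ± 0.00564 in the strongest 10% and 0.703 ± 0.0618 in the weakest, also within the spread. The pileup ratio of 14 over 15 was 0.795 ± 0.0103 in the strongest 10% and 0.722 ± 0.0505 in the weakest, a difference larger than either SD. Its lowest value in a list was 0.783 among the strongest, and its highest was 0.777 among the weakest. No listed peak has a p-value above 0.01 against the input level, so the lowest pileup that can enter a list is higher where the input is higher, and the pileups of the weakest peaks are in part set by that limit. By the same limit a peak of low pileup enters only where its input level is low, and the floor bounds that level from below. The input ratios among the weakest peaks are thus in part set by these bounds too.

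**Figure D3:**
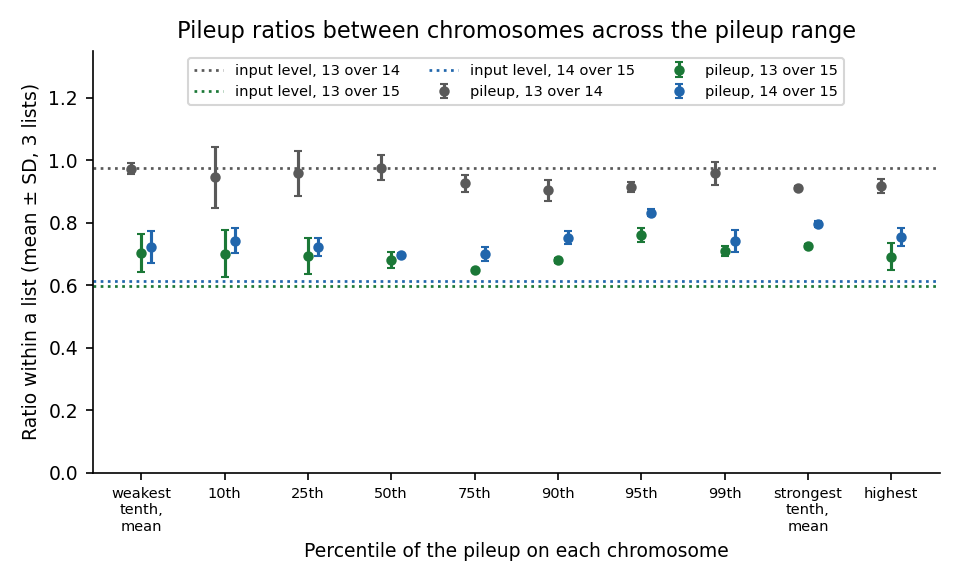
Ratio of the pileup between chromosomes within a list (vertical axis, mean ± SD of 3 lists) at percentiles of the pileup, for the mean of the weakest 10% and the strongest 10% and for the highest peak (horizontal axis). Dotted lines mark the ratios of the mean input level. The ratios of 13 over 15 and 14 over 15 lie between the input ratios (0.598 and 0.613) and 1 throughout, and 13 over 14 lies at 0.903 to 0.976.

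Chromosome 15 was thus overrepresented among the tall peaks of a list, by pileup and not by fold enrichment. The pileup that the strongest 10% of all autosomal peaks reached was 56, 54 and 45 fragments in lists 1, 2 and 3. It was reached by 8.15 ± 0.347% of the peaks on chromosome 13, 9.35 ± 0.462% on chromosome 14 and 15.2 ± 0.0967% on chromosome 15 (SD, n = 3). The fold enrichment that the strongest 10% reached was 17.4, 17.3 and 17.2, and 9.40 ± 0.475%, 10.7 ± 0.0960% and 9.88 ± 0.679% of the peaks of chromosomes 13, 14 and 15 reached it. The order of the chromosomes was the same in every list by pileup, whereas by fold enrichment chromosome 15 was lowest in lists 1 and 2 and second in list 3.

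Median fold enrichment differed little between the chromosomes. It was 5.40, 5.44 and 5.13 on chromosome 13 and 5.60, 5.54 and 5.23 on chromosome 14. On chromosome 15 it was 5.50, 5.38 and 5.37. The ranges overlapped. The ratio of chromosome 14 over 15 was 1.007 ± 0.0289, with 2 lists above 1 and 1 below (exact permutation p = 0.75, adjusted 0.788). The ratio of 13 over 15 was 0.983 ± 0.0273 (exact permutation p = 0.5, adjusted 0.538), and that of 13 over 14 was 0.976 ± 0.00971, below 1 in all 3 lists. Fold enrichment is computed from the pileup and the input level, so a chromosome on which both are higher need not differ in it. Among the strongest 10% by fold enrichment the mean was 28.1 ± 0.370 on chromosome 13, 29.9 ± 0.733 on chromosome 14 and 26.8 ± 0.945 on chromosome 15, and the ratio of 14 over 15 was 1.12 ± 0.0649. The highest single fold enrichment was 99.6, 95.1 and 73.5 on chromosome 13. It was 74.5, 69.0 and 71.0 on chromosome 14, while chromosome 15 reached 50.7, 62.2 and 70.2.

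**Figure D4:**
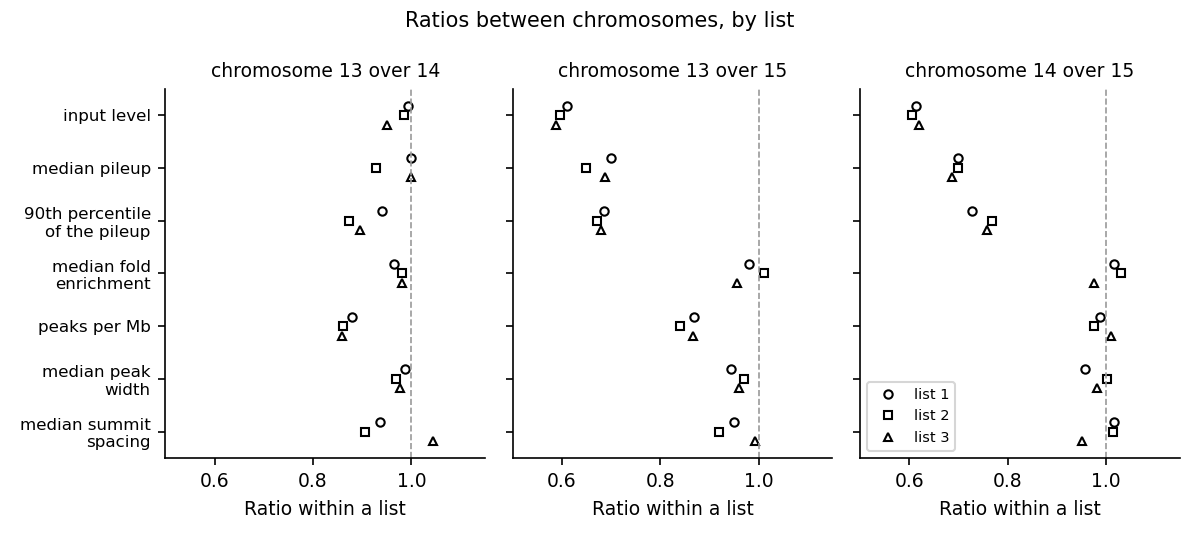
Ratios between chromosomes within each list (horizontal axis, 1 symbol per list, dashed line at 1) for 7 measures (rows), with 1 panel per pair of chromosomes. Input level and pileup separate chromosome 15 from both others, at ratios of 0.588 to 0.769, while fold enrichment and width lie within 0.944 to 1.03 in all panels.

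The strongest kept regions of each chromosome are named by mean pileup, and by the rule that kept them each had a peak in all 3 lists. On chromosome 13 the region with the highest pileup, at 17861663 to 17862609, had 193, 182 and 159 fragments, or 178 ± 17.3 (SD, n = 3). Its fold enrichment of 89.4 ± 13.9 was the highest on the chromosome and the second highest in the series, but its input level was at the floor in lists 1 and 2, so the fold enrichment was set by the floor there. The region at 9145047 to 9145901 had 182, 164 and 152 fragments and was enriched 67.1 ± 6.03 fold. The region at 9027201 to 9028219 had 149, 140 and 127 fragments and a fold enrichment of 56.3 ± 5.05. These 3 regions were also the leading ones by fold enrichment, in the same order. The summits of the lists lay within 2, 18 and 8 bp of each other.

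On chromosome 14 the region at 9003134 to 9005388 had 205, 200 and 166 fragments and was enriched 60.2 ± 8.90 fold. The region at 2553003 to 2554244 had 189, 194 and 177 fragments and the highest mean fold enrichment of the chromosome, 63.2 ± 16.6, with only 44.2 in list 2. The region at 7975961 to 7976984 had 177, 171 and 165 fragments and was enriched 52.1 ± 13.7 fold. By fold enrichment the region at 5910147 to 5911585 came second with 61.0 ± 8.63, at 167, 168 and 139 fragments. The first and second of these regions by pileup differed by less than the SD of the first, and the fold enrichments of all 4 lay within the SD of the highest, so these orders are not resolved.

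On chromosome 15 the region at 11085752 to 11086936 had 263, 264 and 245 fragments, or 257 ± 10.7, which ranked 3 in the whole series by mean pileup. Its fold enrichment was 50.7, 23.6 and 61.3 in lists 1, 2 and 3, ranked 404 in the series by its mean, and its input level was 1.94, 4.93 and 1.89 times the autosomal mean. The pileups were close, so list 2, with the lowest fold enrichment, had the highest recovered input level by calculation. The region at 5503926 to 5506210 had 238, 207 and 194 fragments with a fold enrichment of 50.7 ± 18. The region at 2098237 to 2101134 had 202, 201 and 186 fragments with a fold enrichment of 49.0 ± 4.16, and at 2898 bp it was also the widest of the chromosome.

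By mean fold enrichment the leading regions of chromosome 15 were partly others, though this order is not resolved. The region at 2272137 to 2273292 had the highest mean, 55.1 ± 11.4, at 182, 179 and 168 fragments. The region at 10598647 to 10600265 followed with 51.6 ± 9.0, although it ranked only 20 by pileup on the chromosome, at 124, 134 and 110 fragments. Its input level was 0.743 ± 0.187 times the autosomal mean, low for this chromosome. The input level is recovered from pileup and fold enrichment, so naming a region for high fold enrichment favours a low input level at a given pileup. The regions of this chromosome named by pileup had mean fold enrichments of 45.2, 50.7 and 49.0. These and the mean of 51.6 all lay within the SD of the highest.

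The 3 regions with the highest input level over the 3 chromosomes are named next. The input level is recovered by dividing by the fold enrichment, so this choice favours a low fold enrichment at a given pileup. At chromosome 14, 241 to 523, the input level was 3.29 ± 1.20 times the autosomal mean and the fold enrichment 6.60 ± 0.824. At chromosome 15, 5697460 to 5698024, they were 3.11 ± 0.706 and 2.71 ± 0.70. At chromosome 15, 5040539 to 5040984, they were 3.05 ± 1.88 and 5.06 ± 2.41, with input levels of 2.32, 1.64 and 5.18 in lists 1, 2 and 3. The first of them lies at the very start of the chromosome's coordinates.

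Region density rose in the order of chromosomes 13, 14 and 15. Chromosome 13 had 42.3 regions per Mb of its span of 18.4 Mb, chromosome 14 had 50.8 over 15.03 Mb and chromosome 15 had 54.1 over 12.7 Mb. The other autosomes together had 36.5. A chromosome's span runs up to the end of its last peak. Peaks per Mb were 69.5, 63.4 and 65.2 in lists 1, 2 and 3 on chromosome 13. They were 79.1, 73.6 and 76.0 on chromosome 14, while chromosome 15 had 80.0, 75.5 and 75.2. Within each list chromosome 13 was lowest, with a ratio of 0.866 ± 0.0111 to chromosome 14 and 0.859 ± 0.0163 to chromosome 15 (exact permutation p = 0.25 for each). Chromosomes 14 and 15 had a ratio of 0.991 ± 0.0176, with 1 list above 1 and 2 below (exact permutation p = 0.5).

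Peaks were denser here than on the other autosomes together. The ratio was 1.18 ± 0.0174 for chromosome 13, 1.36 ± 0.0118 for chromosome 14 and 1.37 ± 0.0127 for chromosome 15, above 1 in all 3 lists for each (exact permutation p = 0.25, adjusted 0.309). By regions per Mb the 3 chromosomes ranked 18, 12 and 8 of 31, so none of them stood outside the range of the other autosomes of at least 5 Mb, 30.8 on chromosome 1 to 64.3 on chromosome 26. The median was 45.1 regions per Mb over the other 28 autosomes and 44.0 over those of at least 5 Mb. Chromosomes 14 and 15, at 50.8 and 54.1, lay above both medians. With 42.3, chromosome 13 was denser than the other autosomes together but not than their median. The order of the 3 chromosomes was the same by mean peak density (66.0, 76.2 and 76.9 peaks per Mb) and by input level (0.833, 0.854 and 1.39 times the autosomal mean). Neither order was fully resolved. Chromosome 14 was denser than chromosome 15 in list 3, and the input ratio of 13 over 14 was 0.976 ± 0.0231. A link between density and input level was not tested. The density ratio of 14 over 15 depended on the peaks and span used. It was 0.955 ± 0.00320 among peaks of regions with every list and 0.899 ± 0.00706 at a q-value of at most 1e-05, below 1 in all 3 lists in both (exact permutation p = 0.25, unadjusted). At a q-value of at most 0.05 it was 0.980 ± 0.00595, and over all peaks 0.991 ± 0.0176. In the stronger 50% of each list it was 0.999 ± 0.0243. With stretches of over 100 kb without a peak left out of the span it was 1.01 ± 0.0179.

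The share of peaks that fell in a region of all 3 lists was 62.5%, 69.0% and 68.3% on chromosome 13 and 66.6%, 71.8% and 69.9% on chromosome 14 in lists 1, 2 and 3. It was 68.9%, 73.2% and 74.2% on chromosome 15, against 64.5%, 69.0% and 68.3% on the other autosomes. Chromosome 15 was highest and chromosome 13 lowest within each list. Peaks in regions of all 3 lists were taller than the others. Their median pileup was 17.7, 18.7 and 25.7 fragments on chromosomes 13, 14 and 15 as means of the lists. The other peaks had medians of 7.67, 8.0 and 10.7 fragments. Keeping a region required a call in every list, which favours taller peaks, so this difference is not independent of the rule. Of all joined regions, 46.1% on chromosome 13, 49.0% on chromosome 14 and 53.0% on chromosome 15 held a peak of every list. Pileup and the median −log10 p, which was 8.28, 9.05 and 10.6 on chromosomes 13, 14 and 15 as means of the lists, moved in the same order, and their part in these shares was not tested. Across regions, Spearman's rho of the pileup between lists was 0.882 on chromosome 13, 0.887 on chromosome 14 and 0.914 on chromosome 15 as a mean of 3 pairs of lists. For fold enrichment it was 0.762, 0.771 and 0.805, and for the input level 0.260, 0.229 and 0.272. Summits of all 3 lists lay within 100 bp of each other in 79.8%, 80.6% and 84.5% of the regions.

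Peak widths were alike. The median width was 368, 362 and 340 bp on chromosome 13 and 373, 374 and 348 bp on chromosome 14. Peaks of chromosome 15 measured 390, 373 and 354.5 bp. The ratio of chromosome 13 over 15 was 0.958 ± 0.0135 and that of 13 over 14 was 0.977 ± 0.00934, both below 1 in all 3 lists (exact permutation p = 0.25), and that of 14 over 15 was 0.980 ± 0.0232 with 1 list above 1. The kept regions had median widths of 564, 573 and 554 bp on chromosomes 13, 14 and 15, with 90th percentiles of 1095, 1067 and 1078 bp. At the 99th percentile the peaks of chromosome 15 were wider, with 1338 bp on chromosome 13, 1343 bp on chromosome 14 and 1639 bp on chromosome 15 as means of the lists, and a ratio of 14 over 15 of 0.819 ± 0.0250. Taller regions were wider, and Spearman's rho of pileup and width across regions was 0.579 on chromosome 13, 0.538 on chromosome 14 and 0.598 on chromosome 15.

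The widest regions were not the tallest on chromosomes 13 and 14. The widest region of chromosome 13, at 18128903 to 18131995, was 3093 bp long and joined 8 peaks. It had 53, 53 and 48 fragments, rank 99 on the chromosome. On chromosome 14 the widest, at 9006911 to 9009525, was 2615 bp long with 52, 59 and 48 fragments, rank 98, and the next region before it was the one with the highest pileup of that chromosome. Regions joined from more than 3 peaks numbered 54 of 777 on chromosome 13, 60 of 763 on chromosome 14 and 39 of 689 on chromosome 15.

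Neighbouring regions were close together relative to their mean distance. The median distance between the midpoints of neighbouring regions was 8.22 kb on chromosome 13, 8.89 kb on chromosome 14 and 7.45 kb on chromosome 15, against 9.75 kb on the other autosomes. The mean distances were 22.5, 19.7 and 18.4 kb on chromosomes 13, 14 and 15. The median was 0.366 of the mean on chromosome 13, 0.451 on chromosome 14 and 0.404 on chromosome 15. Spacing was thus least even on chromosome 13 among the 3. On the other autosomes together the median was 0.358 of the mean, so by this ratio spacing was no less even here. At the 90th percentile the distance was 59.9 kb on chromosome 13, 46.6 kb on chromosome 14 and 42.8 kb on chromosome 15. Between summits of single lists the median spacing was 5.01, 5.11 and 5.75 kb on chromosome 13 and 5.35, 5.65 and 5.52 kb on chromosome 14. For chromosome 15 it was 5.27, 5.57 and 5.80 kb. These overlapped, and the ratios between the chromosomes were 0.954 to 0.994 with exact permutation p of 0.25 to 1. Another region lay within 10 kb of 78.4% of the regions on chromosome 13, 76.7% on chromosome 14 and 76.9% on chromosome 15, against 73.1% on the other autosomes.

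Dense clusters made up a larger share of chromosome 15 than of chromosome 13. Of the 183, 150 and 127 complete 100-kb windows on chromosomes 13, 14 and 15, 18, 21 and 21 held at least 10 regions, or 9.84%, 14% and 16.5%, against 7.82% on the other autosomes. Without list 2, where only the other lists had to share a region, the counts rose on all of them, to 29, 28 and 28. They were 29, 29 and 25 without list 3 and 22, 25 and 22 without list 1, among the same numbers of windows. With the windows shifted by 50 kb the counts were 20, 17 and 24 on chromosomes 13, 14 and 15, so the order of chromosomes 13 and 14 by count turned. These windows, unshifted and with all lists, held 29.9% of the regions of chromosome 13, 32.2% of those of chromosome 14 and 39.6% of those of chromosome 15. Windows with no region numbered 28 on chromosome 13, 11 on chromosome 14 and 12 on chromosome 15, or 15.3%, 7.33% and 9.45%, against 20.6% on the other autosomes. Of the 3, chromosome 13 thus had both the largest share of empty windows and the window with the most regions. The variance of the counts per window was 3.71, 2.62 and 3.41 times their mean on chromosomes 13, 14 and 15, against 3.75 times on the other autosomes together. Runs of at least 5 regions, each within 10 kb of the next, held 32.0%, 32.2% and 39.2% of the regions, and the longest run had 18 regions over 48.1 kb on chromosome 13, 24 over 85.1 kb on chromosome 14 and 16 over 61.7 kb on chromosome 15.

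**Figure D5:**
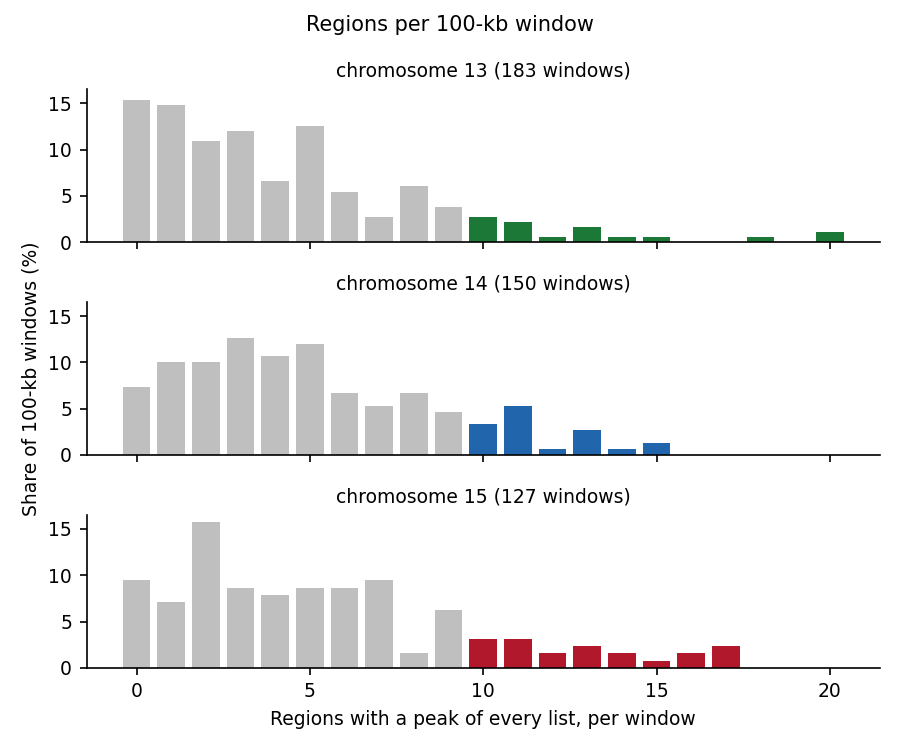
Share of complete 100-kb windows (vertical axis, percent) by the number of regions with a peak of every list that they hold (horizontal axis), 1 panel per chromosome; coloured bars are windows with at least 10 regions. Chromosome 13 reaches 20 regions in a window and has 15.3% empty windows, chromosome 14 stops at 15 and chromosome 15 at 17.

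The densest window of chromosome 13, at 8800001 to 8900000, held 20 regions and 22, 24 and 29 peaks in lists 1, 2 and 3, a count of regions that 2 windows of the chromosome reached. Its strongest region, at 8858183 to 8860027, had 78, 61 and 56 fragments, rank 66 on the chromosome. On chromosome 14 the window at 9000001 to 9100000 held 15 regions, also reached by 2 windows, and 23, 18 and 23 peaks. It contains both the region with the highest pileup and the widest region of that chromosome. On chromosome 15 the window at 2000001 to 2100000 held 17 regions, reached by 3 windows, and 19 peaks in each list, and its strongest region ranked 3 by pileup and was the widest of the chromosome. The regions of the densest windows covered 15.7 kb on chromosome 13, 15.6 kb on chromosome 14 and 14.1 kb on chromosome 15.

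Regions in dense windows were slightly taller than the rest of their chromosome. Their median pileup was 19.7 ± 2.52 fragments on chromosome 13 against 17.3 ± 2.52 in other windows, 20.5 ± 2.18 against 18.7 ± 2.52 on chromosome 14, and 27.7 ± 4.51 against 24.7 ± 3.51 on chromosome 15 (SD, n = 3). The difference had the same direction in all 3 lists on each chromosome. In lists 1, 2 and 3 the medians were 22, 20 and 17 against 20, 17 and 15 on chromosome 13. They were 22, 21.5 and 18 against 21, 19 and 16 on chromosome 14, and 32, 28 and 23 against 28, 25 and 21 on chromosome 15. The SDs of these medians include any difference in depth between lists, so they do not measure the spread of the difference within a list. The input level of regions in dense windows was higher too, at 0.963 ± 0.0392 against 0.846 ± 0.00842 times the autosomal mean on chromosome 13, 0.959 ± 0.0390 against 0.886 ± 0.0155 on chromosome 14 and 1.55 ± 0.0413 against 1.41 ± 0.0131 on chromosome 15. Median fold enrichment was 7.37 ± 0.0190 against 7.12 ± 0.310 on chromosome 13, 7.76 ± 0.355 against 7.56 ± 0.559 on chromosome 14 and 7.60 ± 0.256 against 7.19 ± 0.415 on chromosome 15. These differences in fold enrichment were at most about the larger SD between lists. Within lists, fold enrichment was higher in dense windows in all 3 lists on chromosome 15. On chromosomes 13 and 14 it was higher in lists 2 and 3 and lower in list 1. The median width inside dense windows was 649.5 bp against 549 bp outside them on chromosome 13, 632 against 551 bp on chromosome 14 and 594 against 526 bp on chromosome 15.

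The strongest 10% of the regions by mean pileup were not concentrated in the dense windows. They numbered 78 on chromosome 13, 76 on chromosome 14 and 69 on chromosome 15, with lowest pileups of 58.7, 64.0 and 74.7 fragments. Of them 33.3%, 32.9% and 43.5% lay in dense windows, near the 29.9%, 32.2% and 39.6% of all regions. They were spread over 51, 57 and 47 windows of 100 kb, with at most 4 in any window. Their median fold enrichment was 28.5, 31.0 and 27.6 and their mean input level 1.02, 1.02 and 1.63 times the autosomal mean on chromosomes 13, 14 and 15. On chromosome 13, 23 of them lay in the first 50% of the span and 55 in the second, against 291 and 486 of all its regions. The counts were 43 and 33 against 435 and 328 on chromosome 14, and 36 and 33 against 361 and 328 on chromosome 15. On each chromosome the strongest regions thus leaned the same way as all regions.

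Regions were unevenly spread along the chromosomes, most of all on chromosome 13. Its first 50% held 291 regions and its second 486, or 31.7 and 53.0 per Mb. Peaks per Mb there were 52.5, 48.6 and 48.9 in lists 1, 2 and 3 in the first 50%, and 86.5, 78.1 and 81.5 in the second, with no overlap. Chromosome 14 leaned the other way, with 435 regions in its first 50% and 328 in its second, and peak densities of 86.1 ± 2.96 and 66.3 ± 2.59 per Mb. Between these parts of the span chromosome 15 was the most even, with 361 and 328 regions and 80.4 ± 3.78 and 73.4 ± 3.27 peaks per Mb. By counts in 100-kb windows chromosome 14 was the most even, with a variance of 2.62 times the mean against 3.41 on chromosome 15. Single 1-Mb bins held 9 to 91 regions on chromosome 13, 15 to 76 on chromosome 14 and 36 to 78 on chromosome 15.

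Among chromosomes 13, 14 and 15, chromosome 13 also had the most long stretches without any peak. Stretches of over 100 kb with no peak of any list numbered 18 on chromosome 13, 10 on chromosome 14 and 9 on chromosome 15, and made up 17.3%, 11.2% and 9.53% of the span. The longest was the start of chromosome 13, from 1 to 670184, followed by chromosome 14, 10287133 to 10659280, at 372 kb and chromosome 13, 1558667 to 1846282, at 288 kb. Whether these stretches hold usable sequence was not examined, since no genome of the build was used here. Without them the density was 51.2 regions per Mb on chromosome 13, 57.2 on chromosome 14 and 59.8 on chromosome 15. The order of the chromosomes was thus kept with smaller differences. The other autosomes spanned 885 Mb, and 737 Mb without such stretches, against 18.4 and 15.2 Mb on chromosome 13. With the stretches left out, the peak density ratio to the other autosomes went from 1.18 to 1.19 for chromosome 13. That ratio fell from 1.36 to 1.28 for chromosome 14 and from 1.37 to 1.26 for chromosome 15. Such stretches thus took a similar share of the span on chromosome 13 and the other autosomes, and smaller shares on chromosomes 14 and 15.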

How the data were processed

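Per the submitters' processing notes, Trimmomatic 0.36, STAR 2.5.3a, MACS2, bedtools and HOMER were used, without a stated role for each; no source used here states the genome build, the calling threshold or which control each list was called against. The authors deposited 1 peak list per immunoprecipitation. Lists are numbered by their peak names, which were not matched to replicate numbers of samples. Per the file headers, the deposited columns are the pileup signal, the fold enrichment as a ratio, −log10 of the p-value and of the q-value, and the width in bp. Recomputed Poisson p-values matched the deposited −log10 values within 1% plus 0.01 for 99.9% of the peaks used, which checks the recovered input level. In each region the strongest peak of a list by fold enrichment gave its values.

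Python 3.11.15, pandas 2.3.3, NumPy 2.4.6, SciPy 1.17.1 and Matplotlib 3.10.9 were used, and the steps were tested on simulated peaks. Depth is unknown, so no counting interval was computed. The regions named are, on each chromosome, the 3 highest by mean pileup, the 3 highest by mean fold enrichment, the widest and the densest window, and over all of them the 3 highest input levels and the 3 longest empty stretches. The longest runs, both parts of the span and the strongest regions by window were described after the values were seen. The chromosomes, measures and rules were chosen with earlier results of these data known.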

Additional observations from a re-analysis of the deposited data

How the results depend on the processing

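Read totals are unknown, so levels were not compared between lists. The directions of the input level, the median pileup and the 90th percentile of the pileup were the same under every alternative run, for all 6 pairs, except that the median pileup of chromosome 13 over 14 was 1 without list 2; the input ratio of chromosome 14 over 15 was 0.610 to 0.617 without each list in turn. Ratios close to 1 turned; the cause was not tested. For fold enrichment, 14 over 15 was 0.996 to 1.02 without each list and 0.968 in the stronger 50% of each list, 13 over 15 was 1.04 at a q-value of at most 1e-05, and against the other autosomes chromosome 13 was 0.989 in peaks of regions with every list and 0.980 in the stronger 50%, chromosome 14 was 0.996 in the stronger 50%, and chromosome 15 was 0.980 at 1e-05. For width, 14 over 15 was 1.001 in peaks of regions with every list and 1.009 at 1e-05, and 13 over 14 was 1.002 in the stronger 50%. For spacing, 14 over 15 was 0.983 to 1.01 without each list, 1.19 in peaks of regions with every list, 1.03 at a q-value of at most 0.05, 1.24 at 1e-05 and 1.12 in the stronger 50%, and 13 over 15 was 1.06, 1.20 and 1.098 in peaks of regions with every list, at 1e-05 and in the stronger 50%. The peak density of 14 over 15 was 1.01 without empty stretches. Fewer peaks entered at 1e-05, with 468, 486 and 481 regions and 6, 6 and 11 dense windows on chromosomes 13, 14 and 15. Fewer also entered in the stronger 50%, with 415, 420 and 371 regions and 3, 1 and 3 dense windows. Looser sharing by at least 2 lists gave 40, 40 and 32 dense windows, and a reciprocal overlap of 50% gave 11, 14 and 17. Without each list, where the other lists had to share a region, chromosome 13 had 862 to 908 regions and 22 to 29 dense windows, 29 without list 2 or list 3, against 18. Chromosomes 14 and 15 then had 25 to 29 and 22 to 28 dense windows, against 21 on each. The tests already pair chromosomes within a list. No paired analysis was possible because, for a block by the labels' replicate numbers, list numbers could not be matched to those numbers.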
